A study of Mus musculus with 12 samples.

Results

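The proteasome is the barrel-shaped protease that degrades ubiquitin-tagged proteins, and the genes of its constitutive form were followed here through LPS tolerance in mouse macrophages. Members were the genes whose platform symbol starts with Psma, Psmb, Psmc or Psmd and a digit, leaving out Psmb8, Psmb9 and Psmb10, the inducible subunits of the immunoproteasome. They were 37 of the 18193 genes tested, 16 of the core particle (Psma and Psmb) and 21 of the regulatory particle (Psmc and Psmd). Together they had 76 probe sets, and each gene was read from the brightest of its probe sets, judged by the mean of all 12 arrays. The symbols also took in genes that are no part of the common particle. Psma8 is the testis-type alpha subunit, Psmb11 the thymus-type catalytic subunit and Psmc3ip a factor of meiotic recombination, while Psmd5, Psmd9 and Psmd10 are assembly chaperones. Psma8, Psmb11 and Psmc3ip had mean intensities of 20.02, 19.4 and 48.5, and the other 34 members had means of at least 64.

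The cells came from C57Bl/6 bone marrow and were differentiated with M-CSF, the growth factor of macrophages, and RNA of each culture was measured on 1 Affymetrix array. Lipopolysaccharide (LPS), which coats Gram-negative bacteria, was given at 100 ng/ml in a first step of 18 h, in a last step that followed a change of medium and 2 h of rest, in both steps or in neither. There were 4 groups with 3 biological replicates each, lettered A, B and C. Whether these came from separate animals is not stated, so p-values measure the spread between these cultures, which may be technical. The groups are called untreated (no LPS in either step), LPS once (LPS only in the last step), pretreated (LPS only in the first step) and restimulated (LPS in both). The sources used here give neither the length of the last step nor the age of the mice.

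In the core particle, outer rings of alpha subunits gate the entrance and inner rings of beta subunits hold the protease sites. The regulatory particle has a base, whose ring of ATPases unfolds the substrate and threads it into the core, and a lid, which takes the ubiquitin off. In macrophages the proteasome degrades the inhibitor of NF-kappa-B after LPS and makes peptides for MHC class I molecules, and cytokines can exchange its catalytic subunits for inducible ones.

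All 7 macrophage markers, among them Csf1r and Adgre1, had mean intensities above 64, and their sum ran from 43213 to 59414. In the first LPS response 4 of these 7 fell (Csf1r, Cd68, Itgam and Mertk), and none rose, beside 20.4% of all genes called lower. The T cell, B cell and erythroid markers had means under 64. The 4 markers of granulocyte precursors, with Elane and Mpo under 64, summed to 136.4, 902.5 and 343.1 on the untreated arrays, 238.1, 1224 and 450.4 after LPS once, 126.4, 319.1 and 208.6 pretreated and 167.5, 372.7 and 361.3 restimulated, in the order A, B, C. Within each letter the sum was higher after LPS once and lower after pretreatment than untreated, and higher restimulated than pretreated. The groups overlapped, and limma called none of the 4 genes in any comparison. The SE of Ngp after pretreatment was 0.91, too wide for its missing call to decide whether it changed. The genes did not move together, since after pretreatment Ngp changed by -1.55 and Camp by 0.52. Camp was higher pretreated than untreated in every letter, so the lower sum came mainly from Ngp. The part of these sums in the results was not tested. The summed intensity of 3 collagen genes (Col1a1, Col1a2 and Col3a1), markers of fibroblasts, was 132.3 to 208.3 on the 4 arrays lettered C and 2298 to 7877 on the others. It thus moved mainly with the replicate letter. From untreated to LPS once it was lower in A (4361 to 3079) and B (7877 to 6248) and higher in C (157.7 to 208.3). In the fit without the letter, limma called none of the 3 genes in any comparison. Their SEs in the first response were 1.81 to 2.01, too wide for the missing calls to decide whether these genes changed. The restimulated C array stood apart, with a mean intensity of 246.7 against 310.04 to 317.0 on the other 11 arrays. On it, 33 of the 34 members with means of at least 64 lay below their restimulated group mean, and comparisons that use this group are given with and without it. Within bulk cultures, fewer cells of a type and less RNA per cell cannot be told apart.

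**Figure D1:**
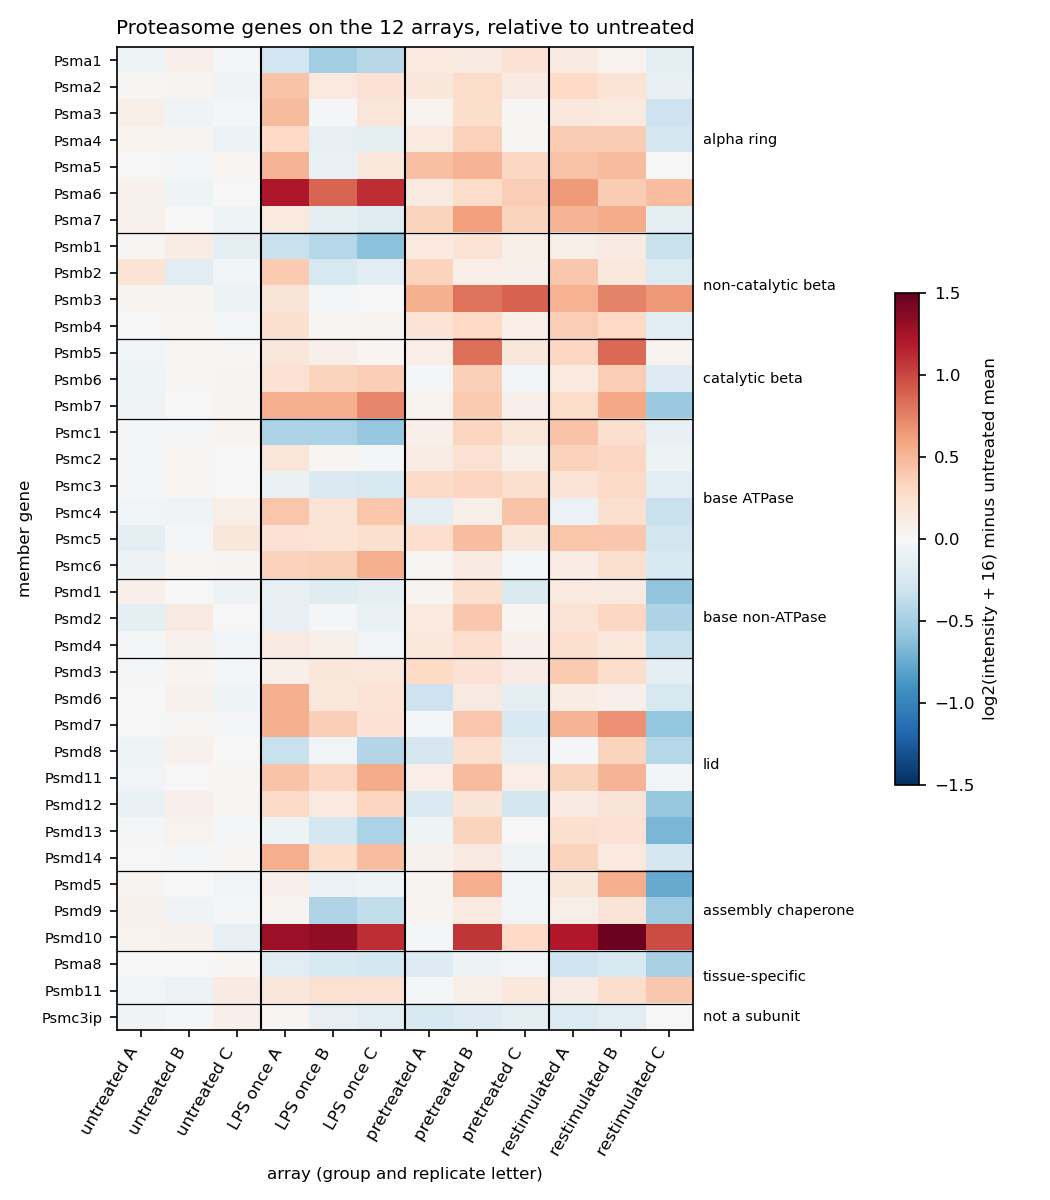
Each of the 37 members (rows, grouped by role) on each of the 12 arrays (columns, by group and replicate letter). Colour gives log2(intensity + 16) minus the mean of the 3 untreated arrays, from blue (lower) to red (higher). Psma6 and Psmd10 stand out on the 3 LPS once arrays, Psmb3 on the pretreated and restimulated arrays, and the restimulated C column is bluer than its neighbours.

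The first LPS response, LPS once against untreated cells, measured these genes in macrophages that had not met LPS before. The threshold for a call was a limma p under 0.05 after Benjamini-Hochberg adjustment over all genes, with no minimum fold, and changes are differences of log2(intensity + 16). Of the 37 members, 5 rose and 4 fell, while 13.0% of all genes tested were called higher and 20.4% lower. The members' shares of calls were close to that of the array for rises and below it for falls. Only Psma6 and Psmd10 changed by at least 2-fold. Across the 14 core members with means of at least 64 the median change was 0.10, and across the 20 such regulatory members it was also 0.10. All 9309 genes of that brightness had a median of -0.26, which became -0.08 after quantile normalization, and the medians of the core and regulatory members were then 0.03 and 0.16. Of the core members 10 of 14 lay above 0, and of the regulatory members 12 of 20, against 35.5% of the genes with means of at least 64. After quantile normalization these counts were 9 and 14, against 46.2%. Many of the 9309 genes were dimmer than Psmd9, the dimmest of those members at a mean of 295.3. The comparison is therefore not matched for brightness.

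Psma6, an alpha ring subunit, had the largest change of the core particle. It read 3672, 3357 and 3516 on the untreated arrays, 8161, 6448 and 7577 on the LPS once arrays, 3857, 4251 and 4537 on the pretreated arrays and 5475, 4572 and 4829 on the restimulated arrays, in the order A, B, C. Every LPS once array lay above every array of the other 3 groups. Psma6 rose by 1.06 ± 0.103 (SE, limma adjusted p = 7.11e-05), which is 2.09-fold. Its other 3 probe sets rose too, and the changes of the 4 ran from 1.03 to 1.95. This call held in all 19 alternatives other than a 2-fold minimum. Counts of alternatives for single members leave out that minimum, under which Psma6 and Psmd10 were the members called in the first response and none was called in the other comparisons. RefSeq gives Psma6 2 start sites, and the 250 bases before each are shown because this gene carries the largest core change. They lie at chr12:55383972-55384221 (+ strand) and chr12:55398575-55398824 (+ strand) of GRCm38.p6, 5′ to 3′. Capitals mark matches on either strand to TGANNNNGC, the loose pattern used for the antioxidant response element, and to the CCAAT box.
Psma6 first start site: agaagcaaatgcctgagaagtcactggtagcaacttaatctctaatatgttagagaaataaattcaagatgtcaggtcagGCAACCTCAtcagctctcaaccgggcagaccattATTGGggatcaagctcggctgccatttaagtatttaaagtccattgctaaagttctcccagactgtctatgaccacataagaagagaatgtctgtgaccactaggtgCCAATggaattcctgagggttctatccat
Psma6 other start site: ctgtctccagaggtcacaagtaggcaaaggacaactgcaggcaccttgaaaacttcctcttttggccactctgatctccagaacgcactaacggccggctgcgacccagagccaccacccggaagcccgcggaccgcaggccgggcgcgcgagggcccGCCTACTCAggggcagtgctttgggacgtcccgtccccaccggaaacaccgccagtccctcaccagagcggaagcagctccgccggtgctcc
The pattern TGANNNNGC, used for the antioxidant response element of Nrf factors, matched 170 bases before the first start site and 92 bases before the other. Both matches were on the reverse strand. The pattern occurs in 41.3% of all 32851 promoter windows, and whether Nrf factors bind these matches was not tested. The CCAAT box matched 136 and 29 bases before the first start site and not before the other.

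Another alpha ring gene moved the opposite way. Psma1 read 2334, 2572 and 2414 untreated and 1992, 1693 and 1823 after LPS once, and the groups did not overlap. It fell by 0.41 ± 0.0837 (SE, limma adjusted p = 0.00442). After averaging its 4 probe sets the change was -0.28, with a limma adjusted p of 0.0593. The 250 bases before its start at chr7:114276117-114276366 (- strand) of GRCm38.p6 are given as a contrast to Psma6, with CCAAT and GGGCGG (GC box) matches in capitals.
Psma1: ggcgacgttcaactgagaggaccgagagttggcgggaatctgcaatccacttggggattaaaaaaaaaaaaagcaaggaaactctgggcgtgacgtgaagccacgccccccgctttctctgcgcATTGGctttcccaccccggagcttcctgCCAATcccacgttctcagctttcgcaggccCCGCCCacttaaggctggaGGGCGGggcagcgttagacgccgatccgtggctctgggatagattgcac
This window holds 2 CCAAT boxes and 2 GC boxes and no match to TGANNNNGC. The other alpha ring genes, Psma2, Psma3, Psma4, Psma5 and Psma7, changed by -0.06 to 0.26, and none was called.

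In the beta rings, Psmb1, a subunit without a protease site of its own, also fell. It read 2318, 2463 and 2083 untreated and 1802, 1693 and 1487 after LPS once, with no overlap, and fell by 0.46 ± 0.126 (SE, limma adjusted p = 0.0188). Of its other probe sets, both with means under 64, 1 changed by -0.19 and 1 by 0.12, and averaging all 3 gave -0.18 with a limma adjusted p of 0.0852. The call was also lost without untreated A, untreated B or LPS once C (limma adjusted p = 0.0559, 0.0702 and 0.0725). Psmb2, Psmb3 and Psmb4, likewise without protease sites, changed by 0.00 to 0.10 on their brightest probe sets and were not called. The second probe sets of Psmb3 and Psmb4, with means of 2225 and 1544, changed by -0.13 and 0.37.

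None of the 3 constitutive catalytic subunits was called. Psmb7, the trypsin-like site, read 1437, 1495 and 1533 untreated and 2174, 2165 and 2474 after LPS once. Those groups did not overlap, and the change was 0.60 ± 0.237 (SE, limma adjusted p = 0.0785). In the fit with only the 6 arrays compared it was called (limma adjusted p = 0.00184), as it was without the restimulated C array (limma adjusted p = 0.00266), the array farthest from its group for this gene.
Psmb6, the caspase-like site, read 2083, 2218 and 2255 untreated and 2564, 2766 and 2829 after LPS once, again without overlap, with a change of 0.31 ± 0.144 (SE, limma adjusted p = 0.125). It too was called with only those 6 arrays (limma adjusted p = 0.0127) and without restimulated C (limma adjusted p = 0.0491). Psmb5, the chymotrypsin-like site, read 2466, 2575 and 2559.5 untreated against 2861, 2673 and 2577 after LPS once, and its change was 0.09 ± 0.219 (SE, limma adjusted p = 0.77). All 3 LPS once arrays were above the untreated ones for Psmb5 as well, by a small margin.

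The tissue-type core genes were near the floor of the array. Psma8 read 23.9, 24.0 and 24.6 untreated and 20.1, 18.4 and 17.4 after LPS once and was called lower at -0.22 (limma adjusted p = 0.0475). That call was lost in 13 of 18 alternatives, among them a pseudocount of 1 and the fit without the 4 arrays lettered C. It was also lost with the replicate block (limma adjusted p = 0.0637) and without any 1 array other than restimulated B or C (limma adjusted p from 0.0501 to 0.143). Psmb11 changed by 0.21 and was called with the block, from intensities of 14.2 to 21.6.

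In the regulatory particle, the largest rise was that of Psmd10, also called gankyrin, a chaperone that holds a base ATPase during assembly. It read 528, 534 and 464 untreated, 1253, 1297 and 1114 after LPS once, 499, 1082 and 629.8 pretreated and 1186, 1435 and 1015 restimulated. All LPS once arrays lay above all untreated arrays, and the pretreated B array was higher than the other pretreated arrays. Psmd10 rose by 1.24 ± 0.238 (SE, limma adjusted p = 0.00315), or 2.36-fold. Of 19 alternatives, 1 ended this call, leaving out the 4 arrays lettered C, where the change was 1.24 with a limma adjusted p of 0.0503. The 250 bases before its start, at chrX:140956712-140956961 (- strand) of GRCm38.p6, are shown as those of the member that rose most, with CCAAT and GGGCGG matches in capitals.
Psmd10: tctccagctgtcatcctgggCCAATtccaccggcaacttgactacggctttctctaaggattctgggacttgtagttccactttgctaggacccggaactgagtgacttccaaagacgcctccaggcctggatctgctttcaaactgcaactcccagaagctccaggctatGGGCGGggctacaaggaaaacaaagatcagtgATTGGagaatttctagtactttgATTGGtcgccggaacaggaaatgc
In all, 3 CCAAT boxes and 1 GC box lie in this window, the nearest CCAAT match 24 bases before the start, and TGANNNNGC was not found in it. The other chaperones were not called, Psmd5 at -0.02 and Psmd9 at -0.26.

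Of the 6 base ATPases, Psmc6 rose and Psmc1 fell. Psmc6 read 1453, 1560.4 and 1578 untreated and 1947, 1959.7 and 2247 after LPS once, without overlap, a change of 0.42 ± 0.114 (SE, limma adjusted p = 0.0185). That call was lost without untreated A (limma adjusted p = 0.0654) and without LPS once C (limma adjusted p = 0.0713). Psmc1, whose tail helps to open the gate of the core, read 1039, 1054 and 1097 untreated, 768, 758 and 714 after LPS once, 1117, 1328 and 1209.6 pretreated and 1436, 1256 and 976 restimulated. Its LPS once arrays were the lowest of all 12. Psmc1 fell by 0.50 ± 0.123 (SE, limma adjusted p = 0.0111), a call kept in all 19 alternatives but lost under the 2-fold minimum. Its promoter window, chr12:100109952-100110201 (+ strand) of GRCm38.p6, is shown because no other fall held in all 19, with the CCAAT box in capitals.
Psmc1: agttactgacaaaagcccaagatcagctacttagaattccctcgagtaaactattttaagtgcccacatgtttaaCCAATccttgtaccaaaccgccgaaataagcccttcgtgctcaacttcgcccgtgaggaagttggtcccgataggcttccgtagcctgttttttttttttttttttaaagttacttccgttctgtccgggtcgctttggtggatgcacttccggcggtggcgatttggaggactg
A single CCAAT box, 175 bases before the start, was the one match of the 4 motifs. Psmc4, the ATPase that gankyrin binds, read 1159, 1142 and 1268 untreated and 1588, 1372 and 1596 after LPS once, without overlap and without a call, at 0.35 ± 0.166 (SE, limma adjusted p = 0.138). Psmc2, Psmc3 and Psmc5 changed by -0.18 to 0.22 and were not called.

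Among the 8 lid genes, Psmd11 and Psmd14 rose. Psmd14 encodes the deubiquitinase of the lid and read 2071, 2012 and 2090.0 untreated and 3009, 2476 and 2837 after LPS once, without overlap, a change of 0.42 ± 0.136 (SE, limma adjusted p = 0.0369). Psmd11, a lid scaffold, read 1874, 1929 and 1972 untreated and 2587, 2394 and 2828 after LPS once, without overlap, at 0.43 ± 0.146 (SE, limma adjusted p = 0.0469). With the replicate letter as a block, Psmd11 was no longer called (limma adjusted p = 0.0518). The Psmd14 call was lost in 7 of 19 alternatives, among them without untreated A, B or C, LPS once A or C, or pretreated A (limma adjusted p from 0.0519 to 0.107). The Psmd11 call was lost in 12, among them without any 1 untreated or LPS once array, pretreated A or C, or restimulated A (limma adjusted p from 0.0566 to 0.147). The other lid genes, Psmd3, Psmd6, Psmd7, Psmd8, Psmd12 and Psmd13, ranged from -0.27 to 0.37, and the base genes Psmd1, Psmd2 and Psmd4 from -0.14 to 0.06, with no call. Psmc3ip changed by -0.09.

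**Figure D2:**
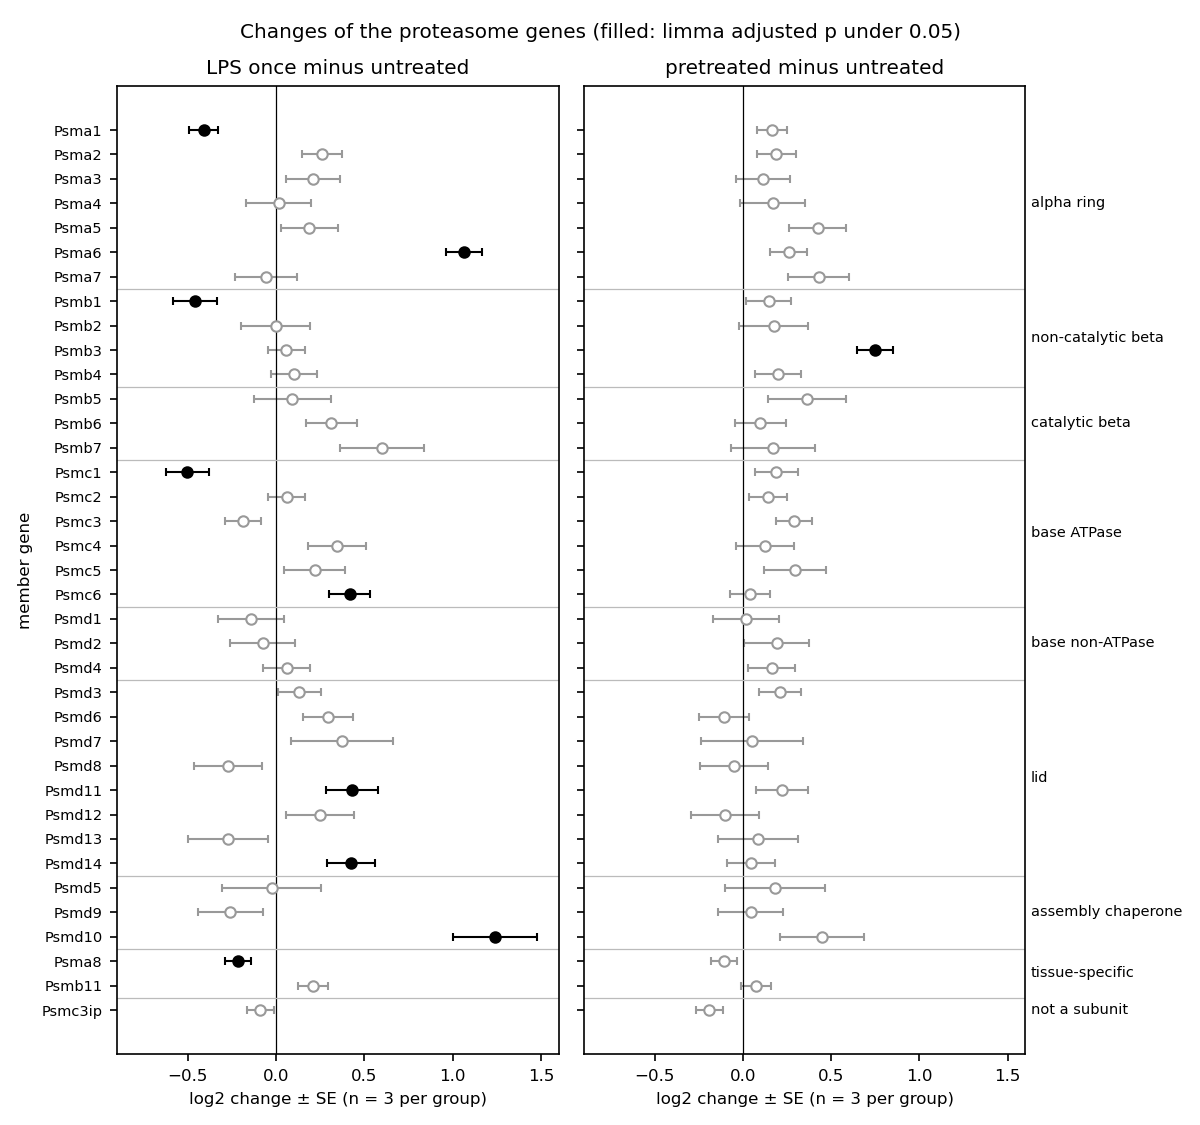
Log2 change of each member (rows, grouped by role) in the first LPS response (left) and after pretreatment alone (right). Points are limma estimates with SE from 3 arrays per group, filled where the adjusted p is under 0.05. On the left 9 members are filled, on both sides of 0, and on the right Psmb3 is, while 32 of 37 estimates lie above 0.

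The pretreatment effect compared pretreated with untreated cells, neither of which got LPS in the last step. It uses the same untreated arrays as the first response. Psmb3, a beta ring subunit without a protease site, was the 1 member called higher, none was called lower, and 0.473% of all genes were called higher and 0.451% lower. Psmb3 read 1952, 1947 and 1801 untreated, 2167, 1869 and 1912 after LPS once, 2763, 3349 and 3532 pretreated and 2722, 3182 and 2995 restimulated. Both groups that had been pretreated lay above both groups that had not, with no overlap. The pretreatment effect was 0.75 ± 0.103 (SE, limma adjusted p = 0.00926), or 1.68-fold, and the second probe set gave 0.56. The call was lost without untreated C (0.71, limma adjusted p = 0.0558) and without the 4 arrays lettered C (0.64, limma adjusted p = 0.209). The 250 bases before its start, chr11:97703184-97703433 (+ strand) of GRCm38.p6, are shown as those of the 1 member called here, with CCAAT and TGANNNNGC matches in capitals.
Psmb3: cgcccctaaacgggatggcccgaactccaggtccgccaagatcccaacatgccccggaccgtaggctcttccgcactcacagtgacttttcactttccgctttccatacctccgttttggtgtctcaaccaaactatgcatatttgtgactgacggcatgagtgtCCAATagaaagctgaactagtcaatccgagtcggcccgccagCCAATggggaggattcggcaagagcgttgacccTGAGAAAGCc
Here 2 CCAAT boxes lie 85 and 43 bases before the start, and a match to TGANNNNGC lies 10 bases before it.

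Most other estimates after pretreatment were small and above 0. Of the members with means of at least 64, 14 of 14 in the core and 17 of 20 in the regulatory particle lay above 0, with medians of 0.18 and 0.13. The 9309 genes of that brightness had a median of -0.04, and 44.5% of them lay above 0. After quantile normalization the counts were again 14 and 17, and 50% of those genes lay above 0. Without pretreated B, which was the highest pretreated array for most members, the counts were 13 of 14 and 12 of 20, with medians of 0.15 and 0.04. Psma7, an alpha ring subunit, had the second-largest change of the core. It read 1542, 1483 and 1413 untreated and 1875, 2281 and 1863 pretreated, without overlap, at 0.43 ± 0.174 (SE, limma adjusted p = 0.358), and its other probe set gave 0.57.

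Psma5, its neighbour in size of change, was called in the fit of these 6 arrays alone and was otherwise at 0.42 ± 0.16 (SE, limma adjusted p = 0.315), with 1849, 1810.2 and 1895 untreated and 2537, 2639 and 2297 pretreated. For the catalytic Psmb5 the pretreated arrays read 2705, 4504 and 2853, so B stood apart, and the change was 0.36 ± 0.219 (SE, limma adjusted p = 0.599). The same letter was high again after restimulation, at 3151, 4584 and 2621. Psmb6 and Psmb7 changed by 0.10 and 0.17. In the regulatory particle the largest effects were those of Psmd10, at 0.45 ± 0.238 (SE, limma adjusted p = 0.523), and of the ATPases Psmc5 and Psmc3. Psmc5 read 1181, 1289.8 and 1467 untreated and 1559, 1804 and 1476 pretreated, for 0.29 ± 0.173 (SE, limma adjusted p = 0.585). Psmc3 read 1511, 1569 and 1542 untreated against 1889, 1936 and 1829 pretreated, without overlap, for 0.29 ± 0.102 (SE, limma adjusted p = 0.285), and was called after quantile normalization, without restimulated C and in the fit of these 6 arrays.

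**Figure D3:**
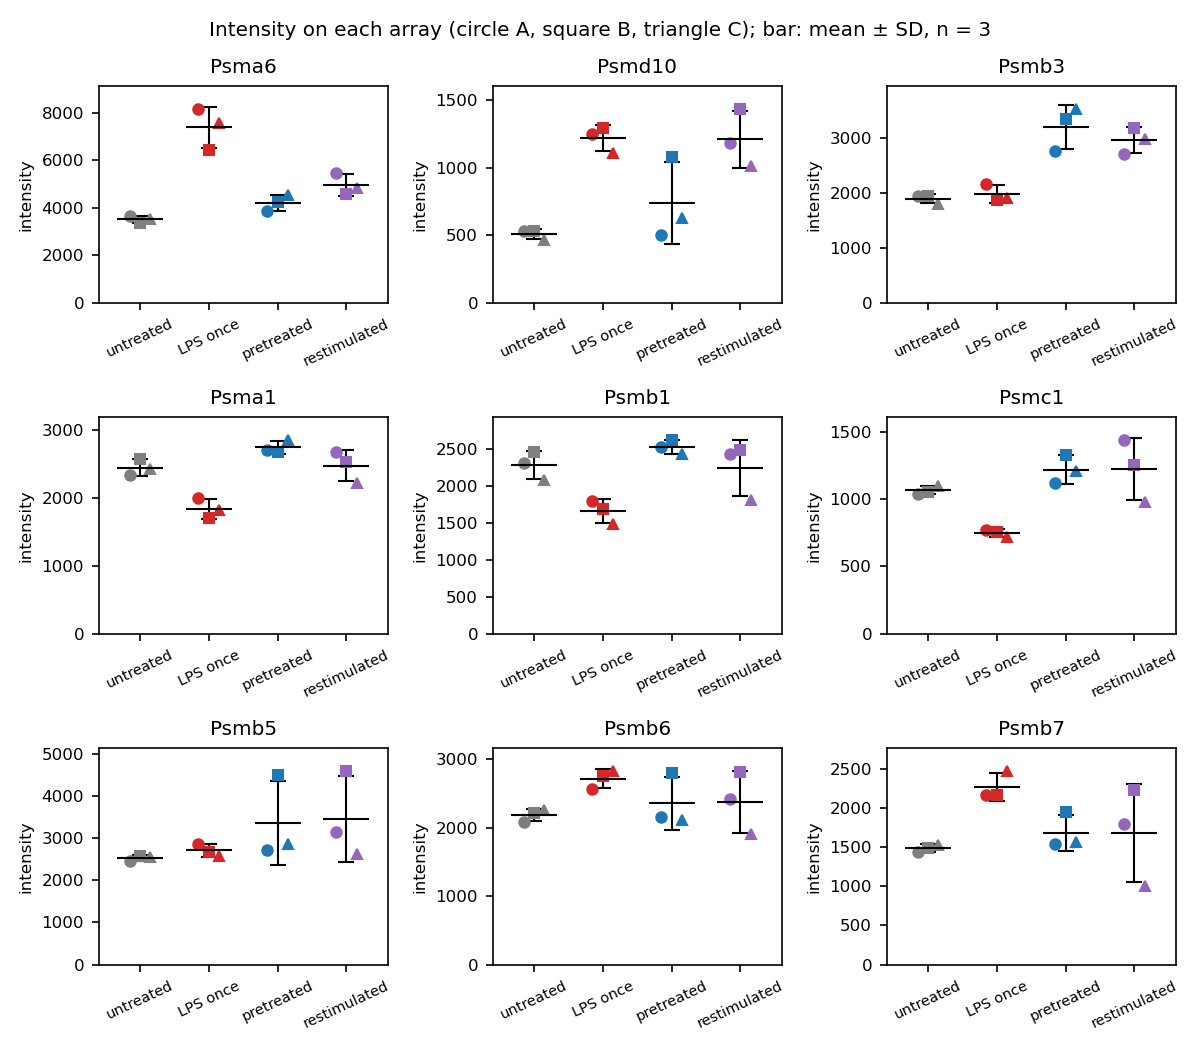
Deposited intensity of 9 members on each array (linear axis from 0), by group, with circles for replicate A, squares for B and triangles for C. Bars give the mean ± SD of 3 arrays. Psma6 is highest on the LPS once arrays (6448 to 8161), Psmb3 is high in both pretreated groups, and Psma1, Psmb1 and Psmc1 are lowest on the LPS once arrays.

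The second LPS response compared restimulated with pretreated cells. Of the 37 members none was called by limma in either direction, where 0.962% of all genes were called higher and 3.09% lower. At an unadjusted p under 0.05, 2 members were higher (Psma6 and Psmd10) and 1 was lower (Psma8). Psmd10 changed by 0.77 ± 0.238 (SE, limma adjusted p = 0.108), and every restimulated array was above the pretreated A and C arrays but restimulated C was below pretreated B. Without pretreated B the change was 1.08 and was called (limma adjusted p = 0.00613). Psma6 changed by 0.23 ± 0.103 (SE, limma adjusted p = 0.25), with all restimulated arrays above all pretreated ones. The catalytic subunits changed by 0.04 (Psmb5), 0.01 (Psmb6) and -0.07 (Psmb7).

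The members centred near 0 in the second response, and their side of it depended on 1 array. Among members with means of at least 64, the medians were -0.07 in the core and -0.02 in the regulatory particle, and after quantile normalization these flipped to 0.04 and 0.14. Without restimulated C they were 0.10 and 0.14, with 11 of 14 and 18 of 20 members above 0 against 3 and 9 with it. The 9309 genes of that brightness had a median of -0.21 with that array and -0.07 without it.

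The interaction, second minus first response, asked whether a previous exposure changed the response to LPS. It shares its arrays with both responses. Psma6 was the 1 member called, lower, with 1.93% of all genes called higher and 1.97% lower. After quantile normalization 2 members were called higher (Psma1 and Psmc1) and 1 lower (Psma6). The rise of Psma6 was smaller on the second exposure by 0.83, an interaction of -0.83 ± 0.146 (SE, limma adjusted p = 0.0179). Averaging its 4 probe sets kept the call, and the 4 interactions ran from -1.64 to -0.80. It was lost in 3 of 18 alternatives, without untreated B (limma adjusted p = 0.0505), without untreated C (limma adjusted p = 0.0534) and without the 4 arrays lettered C (-0.74, limma adjusted p = 0.175). Psmb7 had the next largest interaction of the core, -0.68 ± 0.336 (SE, limma adjusted p = 0.345), with restimulated arrays at 1804, 2233 and 1004 and C far below the others.

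In the regulatory particle the largest interactions were those of Psmc4, at -0.53 ± 0.234 (SE, limma adjusted p = 0.276), and Psmc1, at 0.49 ± 0.174 (SE, limma adjusted p = 0.172). The restimulated arrays of Psmc1 overlapped with the pretreated ones. Its interaction was called after quantile normalization (0.57, limma adjusted p = 0.0104) and without restimulated C (0.64, limma adjusted p = 0.0125). For Psmc4 the restimulated arrays read 1118, 1405 and 936 and the pretreated 1078, 1261 and 1606, with overlap. The other probe set of Psmc4, with a mean of 1243 against 1294, gave an interaction of -0.37. Its second response was 0.02, against -0.19 on the probe set used. The interaction of Psmd10 was -0.47 ± 0.336 (SE, limma adjusted p = 0.551). Across members with means of at least 64 the median interaction was -0.15 in the core and -0.19 in the regulatory particle, against 0.07 for genes of that brightness. Quantile normalization brought the members' medians to -0.02 and -0.08, and without restimulated C they were -0.06 and 0.07, so that the regulatory median changed sign.

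**Figure D4:**
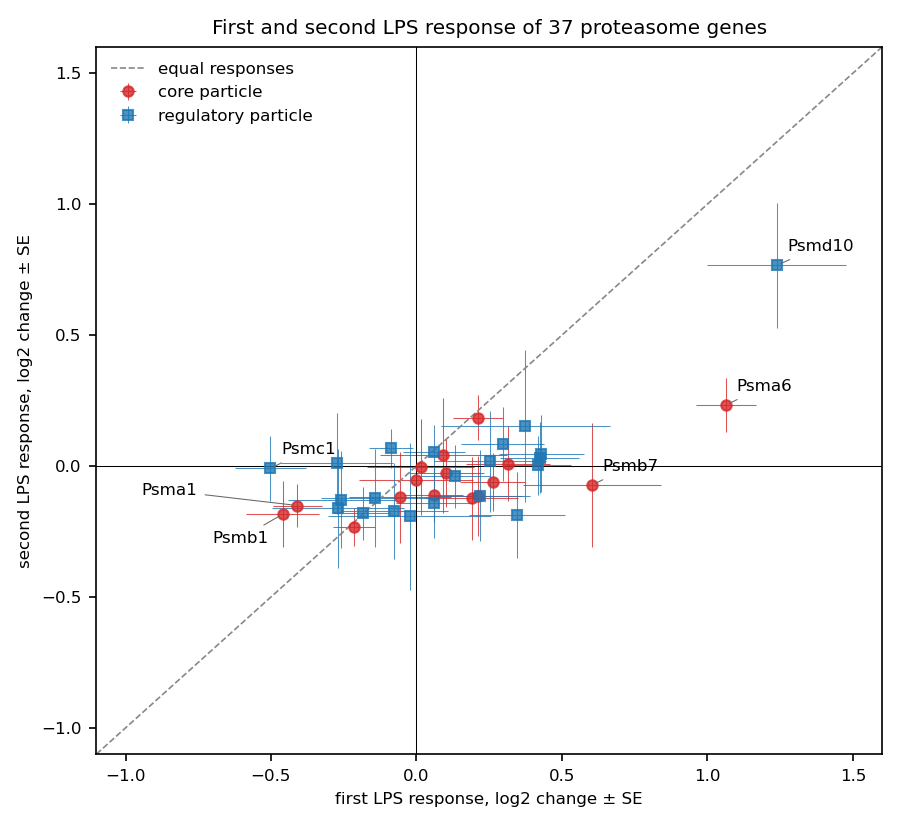
First LPS response (horizontal axis) against second LPS response (vertical axis) of the 37 members, as log2 changes with SE, circles for the core and squares for the regulatory particle. The dashed line marks equal responses. Psma6 lies far below it (1.06 against 0.23), Psmd10 lies at 1.24 against 0.77, and most other members lie near 0 on the vertical axis.

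Levels after the last LPS dose were also compared directly, restimulated against LPS once. Of the members 3 were higher and 1 was lower, with 7.49% of all genes called higher and 7.21% lower. After quantile normalization 7 were higher and 1 was lower. Psmc1 was higher by 0.68 ± 0.123 (SE, limma adjusted p = 0.00525), Psmb3 by 0.58 ± 0.103 (SE, limma adjusted p = 0.00495) and Psma1 by 0.42 ± 0.0837 (SE, limma adjusted p = 0.00837). For each of these 3 all restimulated arrays lay above all LPS once arrays. Without restimulated C the differences were 0.84, 0.57 and 0.50, all called, and 5 further members were called higher (Psma7, Psmb1, Psmc2, Psmc3 and Psmd13), for 8 in all. Leaving out that array moved other genes too. Of all genes with means of at least 64, 60.4% lay above 0 without it and 52.1% with it. Psmb1 was at 0.42 ± 0.126 (SE, limma adjusted p = 0.0516) and was called with the replicate letter as a block (limma adjusted p = 0.011).

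Psma6 was lower in restimulated than in LPS once cells, at -0.57 ± 0.103 (SE, limma adjusted p = 0.00536), and at -0.56 without restimulated C. In a fit of only these 6 arrays that call was lost (limma adjusted p = 0.0621), as were those of Psmc1 (limma adjusted p = 0.0673) and Psma1 (limma adjusted p = 0.0888). Without the 4 arrays lettered C the calls of Psma6 and Psmb3 were lost (limma adjusted p = 0.0881 and 0.0646). The mean of the 4 Psma1 probe sets differed by 0.04 (limma adjusted p = 0.864). Psmd10 reached 1186, 1435 and 1015 restimulated against 1253, 1297 and 1114 after LPS once, with overlap, and differed by -0.02 ± 0.238 (SE, limma adjusted p = 0.97). The median difference was 0.12 in the core and -0.0037 in the regulatory particle among members with means of at least 64, with 9 of 14 and 10 of 20 above 0. After quantile normalization these medians were 0.28 and 0.15, and without restimulated C 0.27 and 0.21, while genes of that brightness had 0.03, 0.05 and 0.15.

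Promoter windows of 250 bases before to 50 after the start were matched in RefSeq for 30 of the 37 members, in 32 windows. TGANNNNGC, searched on both strands like the other motifs, occurred in 59.4% of the members' windows and in 41.3% of all 32851 windows. GGGCGG occurred in 56.2% against 35.7%, CCAAT in 40.6% against 37.4% and CACGTG (an E-box) in 6.25% against 7.15%. Of the 6 windows of the 5 members that rose in the first response, 3 held TGANNNNGC, 2 of them at the start sites of Psma6. Only 2 of the 4 members that fell had a window, and neither window held it. For CCAAT the counts were 3 of 6 and 2 of 2, and for GGGCGG 4 of 6 and 1 of 2. With so few windows, risen and fallen members cannot be compared. No 2 motif matches overlapped in the windows shown. The windows differ in base composition, with 42.8% G and C before the first start site of Psma6 and 65.6% before the other.

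The 3 inducible subunits of the immunoproteasome, left out by the rule, take the places of Psmb5, Psmb6 and Psmb7. After pretreatment Psmb8 changed by 1.17 ± 0.298 (SE, limma adjusted p = 0.128), Psmb9 by 1.09 ± 0.456 (SE, limma adjusted p = 0.375) and Psmb10 by 0.97 ± 0.261 (SE, limma adjusted p = 0.146), none of them called. Psmb8 read 1684, 1407 and 1624 untreated and 3565, 3659 and 3417 pretreated, without overlap. For Psmb9 and Psmb10, too, all pretreated arrays lay above all untreated ones. The SE draws on all 4 groups, and for Psmb8 LPS once A stood apart, at 3591 against 1579 and 1670 in B and C. The missing calls therefore do not show that these genes were unchanged. In the first response Psmb10 rose by 0.82 ± 0.261 (SE, limma adjusted p = 0.0365), with LPS once A far above B and C at 3608, 2334 and 1845, and the other 2 were not called.

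In the lists that follow, counts in the first response stand beside 13.0% of all genes called higher and 20.4% lower. Of 4 measured activator and inhibitor genes of the proteasome, Psme3, a nuclear activator, rose in the first response by 0.96 ± 0.173 (SE, limma adjusted p = 0.00219) and Psme1, an interferon-inducible activator, rose after pretreatment by 0.63 ± 0.121 (SE, limma adjusted p = 0.0489). None of 5 assembly chaperones outside the rule (Psmg1, Psmg2, Psmg3, Psmg4 and Pomp) was called by limma in any of the 5 comparisons, and their median change in the first response was -0.52, against -0.26 over all genes with means of at least 64, as theirs were. Of 8 further proteasome-bound proteins, 2 rose in the first response and 2 fell. Zfand5, which can activate the particle, rose by 0.87 ± 0.118 (SE, limma adjusted p = 0.000446) and Txnl1, a bound thioredoxin, by 0.49 ± 0.107 (SE, limma adjusted p = 0.00627). Uchl5, a bound deubiquitinase, fell by 1.03 and Zfand2a, an arsenite-inducible protein, by 2.25 (limma adjusted p = 0.00882 and 5.33e-05).

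Of 10 shuttle factors and p97 partners, which bring ubiquitin-tagged proteins to the particle, none rose and 2 fell in the first response, Ubqln2 at -1.17 and Faf1 at -0.66 (limma adjusted p = 0.000246 and 0.00299). Uba6, the 1 ubiquitin-activating enzyme measured, was not called by limma in any comparison. Among 8 genes of the Nrf1 and Nrf2 pathway, whose factors drive proteasome genes when the particle is inhibited, 2 rose in the first response. Nfe2l1, which encodes Nrf1, rose by 0.91 ± 0.313 (SE, limma adjusted p = 0.049) and the partner gene Maff by 3.86 ± 0.323 (SE, limma adjusted p = 3.33e-05). The Nfe2l1 groups overlapped, with 499, 545.9 and 578 untreated against 565.2, 1424 and 1341 after LPS once, so LPS once A lay among the untreated arrays. In the second response Maff rose by 1.84 ± 0.323 (SE, limma adjusted p = 0.0168) and Nfe2l2, which encodes Nrf2, by 0.86 ± 0.201 (SE, limma adjusted p = 0.0461), and the interaction of Maff was -2.02 ± 0.457 (SE, limma adjusted p = 0.0414). Over these lists, the level after LPS was lower in restimulated than in LPS once cells for Psme3, Txnl1, Zfand5 and Maff, at -0.66, -0.45, -0.47 and -2.49, and higher for Zfand2a and Faf1, at 1.11 and 0.56. Zfand5 also rose in the second response, by 0.68, and Zfand2a had a called interaction of 1.44.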

How the data were processed

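Mouse bone-marrow macrophages in 4 groups of 3 arrays were analysed. The deposited table gives linear intensities, with 1 value for each probe set on each array. Per the labels' protocols, RNA was isolated with TriFast and labelled by the standard Affymetrix procedure. How the authors scaled the intensities is not stated in the sources at hand, and mean intensities per array ran from 246.7 to 317.0. Values were used as log2(value + 16) without further normalization, a scale that understates changes of dim genes. Gene names are those of the platform annotation.

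In limma 3.58.1 (R 4.3.3), the 4 group means were fitted over all 18193 genes and 12 arrays (8 residual and 1.71 prior degrees of freedom), and p-values were adjusted over all genes of a comparison. The number of arrays limits the precision. The script was tested on simulated data. The plan was to give all array values, per particle, for the 4 largest first responses and the 2 largest interactions and pretreatment effects. The catalytic subunits were also in the plan. For several of these, among them Psma1, Psmb1, Psmb6, Psmb7, Psmd11 and Psmd14, only the arrays of some groups are printed. Beyond the plan, values are given for other called members and for Psma5, Psmc3, Psmb8, Psmb10 and Nfe2l1, chosen after their values were seen. Members and lists were chosen with earlier results of these data known.

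Replicate letters paired the arrays: deviations from group means correlated at 0.25 to 0.66 (median 0.36) for the 18 same-letter pairs and at -0.49 to 0.02 for the 36 others. Whether a letter marks a shared animal is not stated. The main fit leaves the letter out, so its error includes differences between letters, and the block is given as an alternative. Alternatives were quantile normalization, a pseudocount of 1, a minimum mean intensity of 64, the mean of all probe sets, the replicate block, only the arrays compared, a 2-fold minimum, each array left out and, added after seeing the data, no arrays lettered C. Promoter sequences are RefSeq's (GRCm38.p6). The lists of chaperonin and MHC class I loading genes are given with the closing observations.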

Additional observations from a re-analysis of the deposited data

Results flagged for a closer look

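The response of Psma6 to LPS differed between cells without and with an earlier exposure by a test of the difference itself. The second response minus the first was -0.83 ± 0.146 (SE, limma adjusted p = 0.0179), with a first response of 1.06 and a second of 0.23. On the first exposure, 3 of 3 arrays with LPS lay above all 3 without, and the same held on the second.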

How the results depend on the processing

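No called change of a member reversed in any alternative run. Apart from the 2-fold minimum, the calls of Psma6 and Psmc1 in the first response held in all 19 alternatives, and those of Psma1 and Psmd10 in 18. The 2-fold minimum kept Psma6 and Psmd10 and ended the calls of Psmc1 and Psma1. In the first response, where 5 members were called higher and 4 lower, the fit of only the arrays compared called 10 higher, leaving out the 4 arrays lettered C called 3 higher (Psma6, Psmc6 and Psmb7, the last not among the 5), the mean of all probe sets left 2 lower and a 2-fold minimum left 2 higher and 0 lower. After pretreatment, where 1 was called higher, quantile normalization called 2, the arrays compared alone 3, and the fit without the arrays lettered C and the 2-fold minimum 0 each. For the interaction, with 0 higher and 1 lower, quantile normalization called 2 higher, and the fit without the arrays lettered C and the 2-fold minimum left 0 lower. For the level after LPS, with 3 higher and 1 lower, quantile normalization called 7 higher, the mean of all probe sets 3 lower, the arrays compared alone 1 higher and 0 lower, the fit without the arrays lettered C 0 lower and the 2-fold minimum 0 in either direction. The 2-fold minimum is stricter by construction, and for the others the cause was not tested. The number of all genes called also changed between runs. In the first response quantile normalization called 2588 of all genes higher and 3222 lower, against 2368 and 3710 as reported. A larger count of members is therefore not a result about the members alone.

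Leaving out 1 array at a time gave 2 to 9 members higher and 2 to 5 lower in the first response, 0 to 2 higher after pretreatment, 0 to 1 in either direction in the second response and the interaction, and 3 to 8 higher and 1 to 2 lower for the level after LPS. The highest counts in the first response, after pretreatment and for higher levels after LPS came without restimulated C, where Psmc1 was also the member called higher in the interaction. In the first response the lowest counts of 2 came without untreated A and without LPS once C and, for falls, without untreated B. The member called in the second response was Psmd10 without pretreated B and Psma8, lower, without restimulated B. The regulatory particle's median interaction, -0.17 over all 21 members, ran from -0.278 to 0.0889, positive without restimulated C. Its pretreatment median, 0.125, was 0.00075 without pretreated B.

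With the replicate block, which uses the pairing by letter, 5 members were called higher and 3 lower in the first response, 1 higher after pretreatment, 0 in the second response, 1 lower in the interaction and 4 higher and 1 lower for the level after LPS. It changed the calls of Psmd11, Psma8, Psmb11 and Psmb1 given above and no other member's. Psma8, Psmb11 and Psmc3ip lie near the floor of the array, where the scale shrinks any change and a difference may be background. With a pseudocount of 1, which shrinks changes less, Psma8 was not called in the first response.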

Other observations

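The chaperonin, another large ring of many subunits that folds actin and tubulin, was measured through 8 genes. In the first response 4 of them rose and none fell, beside 13.0% of all genes called higher and 20.4% lower. The median over the 8, all with means of at least 64, was 0.33, against -0.26 over all genes of that brightness and 0.04 over all genes tested. Cct3 rose by 0.59 ± 0.194 (SE, limma adjusted p = 0.0414), Tcp1 by 0.54 ± 0.112 (SE, limma adjusted p = 0.00488), Cct6a by 0.47 ± 0.0824 (SE, limma adjusted p = 0.00188) and Cct8 by 0.47 ± 0.145 (SE, limma adjusted p = 0.0319). None was called by limma after pretreatment, in the second response or in the interaction. In restimulated against LPS once cells 4 were lower, Cct8 (-0.65), Cct6a (-0.59), Tcp1 (-0.48) and Cct2 (-0.36), and none was higher. In that comparison 7.21% of all genes were called lower and 7.49% higher.

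Of 8 genes that load peptides onto MHC class I molecules, 3 rose in the first response and none fell, with a median over the 8 of 0.06. Tap1 and Tap2, which form the peptide transporter, rose by 1.70 ± 0.395 (SE, limma adjusted p = 0.00849) and 1.04 ± 0.21 (SE, limma adjusted p = 0.00414), and the loading factor Tapbp rose by 0.33 ± 0.111 (SE, limma adjusted p = 0.0443). After pretreatment Tapbp alone was called, higher by 0.75 ± 0.111 (SE, limma adjusted p = 0.0129), beside 0.473% of all genes called higher. The median of the 8, all with means of at least 64, was then 0.57, against -0.04 over all genes of that brightness and 0.02 over all genes tested. Tap2 had a called interaction of -1.34 ± 0.297 (SE, limma adjusted p = 0.0383).

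The genes next to the called members were looked up in the RefSeq gene order of GRCm38.p6 after the values had been seen. Around 8 called members with means of at least 64, 16 neighbours were tested, 7 were called in the first response, and all 7 had moved in the direction of their member. Across the array 13.0% of genes were called higher and 20.4% lower. The neighbours other than Vsig1 and Tbr1 had means of at least 64, and calls were more common at that brightness. Of 9309 such genes 1372 were called higher and 3337 lower, so the number of called neighbours does not set them apart. The sharing of direction was not tested. Nfkbia, which encodes the inhibitor of NF-kappa-B and lies next to Psma6, changed by 0.71 ± 0.113 (SE, limma adjusted p = 0.00113) in the first response, by 0.86 ± 0.113 (SE, limma adjusted p = 0.00655) in the second and by 0.16 ± 0.16 (SE, limma adjusted p = 0.715) in the interaction. Tank lies next to Psmd14 and changed by 1.67 ± 0.198 (SE, limma adjusted p = 0.000207) and 1.52 ± 0.198 (SE, limma adjusted p = 0.00649) in the first and second responses. Both neighbours of Psmc1 fell in the first response, Kcnk13 at -2.50 and Nrde2 at -1.05 (limma adjusted p = 4.71e-05 and 0.00406). The neighbours of Psmd10, Vsig1 and Atg4a, were not called in the first response.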
